A study of Mus musculus with 401 samples.

Results

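Kit encodes the receptor tyrosine kinase KIT and Kitl encodes KIT ligand, also called stem cell factor. In the ovary the oocyte carries the receptor and the granulosa cells around it make the ligand. Binding of the ligand pairs up receptor molecules on the oocyte surface and starts signalling through PI3K and AKT, which drives FOXO3 out of the nucleus, and through RAS, SRC and JAK kinases. The axis is known for the survival of germ cells, the awakening of primordial follicles and the growth of the oocyte, and the oocyte in turn is known to act on Kitl in granulosa cells through GDF9 and BMP15.

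Both genes were looked up by their Ensembl identifiers in the 2 deposited count tables, and the 2 genes are described here out of 43633 gene identifiers. Single oocytes at the germinal vesicle stage and the pool of cumulus cells of the same oocyte-cumulus complex had been taken from fully grown follicles of B6D2F1 (C57BL/6 x DBA/2) female mice and sequenced by RamDA-seq, which reads total RNA along the whole transcript. The first set held young (2 months), middle (9 months) and old (14 months) mice fed ad libitum (AL) and CR mice (9 months, calorie restriction begun in adult life). The second held mice of 2, 4, 9 and 14 months (2mo, 4mo, 9mo and 14mo) and mice of 2 months without hyperovulation (2moNoH), all on the AL diet. All groups except 2moNoH had been hyperovulated with eCG or CARD HyperOva, and which agent each group received is not given in the sources used here. Of 401 libraries, 200 of oocytes and 199 of cumulus cells were analysed, and 197 complexes had both. Mouse labels numbered 2 in young, 4 in middle, 2 in old, 3 in CR, 5 in 2mo, 8 in 4mo, 4 in 9mo, 5 in 14mo and 8 in 2moNoH, and the old label Old1_2 appears to join 2 mice. Complexes of 1 mouse are not independent animals, so the p-values over libraries measure the spread between complexes. For Kit and Kitl, values over mouse labels are given beside the differences between groups that passed the test. The differences between the cell types, and those of all other genes named, are given over libraries alone.

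1 complex of the middle group was left out, because its library labelled oocyte correlated at 0.750 with the mean oocyte and at 0.938 with the mean cumulus library. Median totals ranged over groups from 1986202 to 3578882 counts in oocytes and from 854688 to 2019007 in cumulus cells, both highest in CR. The labels were checked with 13 oocyte and 12 cumulus marker genes. The summed oocyte markers had group medians of 17441 to 23588 CPM (counts scaled to a common library size) in oocytes and of 2.25 to 6.21 CPM in cumulus cells, and the cumulus markers 290.8 to 609 CPM in oocytes and 6479 to 9686 CPM in cumulus cells. In some oocyte libraries of the first set the cumulus markers were higher, up to 2735 CPM, against at most 396 CPM in the second set.

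Kit (ENSMUSG00000005672) lies at chr5:75574916-75656722 on the plus strand of GRCm38 and has 8 annotated transcripts, of which 2 are coding. Kitl (ENSMUSG00000019966) lies at chr10:100015630-100100416, also on the plus strand, and has 6 transcripts, of which 4 are coding. Each gene makes alternative proteins that counts per gene cannot tell apart, and the stretches that differ are shown because every value below sums over them. Kitl exon 6 holds the site at which the ligand is shed from the cell surface. It is part of the transcript Kitl-202 and is skipped in Kitl-201, which leaves a ligand that mostly stays on the membrane. The exon is coding, spans 84 bases or 28 codons at chr10:100080857-100080940 and is printed in capitals throughout. In Kit, the last 12 bases of exon 9, or 4 codons just outside the membrane, are present in Kit-201 and absent from Kit-204. They are the capitals in the stretch at chr5:75639117-75639158, with the coding bases before them in lower case.
Kitl exon 6: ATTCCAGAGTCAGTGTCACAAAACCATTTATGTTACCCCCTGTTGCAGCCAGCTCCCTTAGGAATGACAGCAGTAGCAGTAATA
Kit exon 9, end: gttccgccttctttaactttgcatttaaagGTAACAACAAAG

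The receptor was abundant in oocytes of all 9 groups, and its level varied little outside the first set. CPM are normalized by TMM within each set and cell type, so levels are comparable within a set only. Kit in young oocytes had its lowest value at 153 CPM, its median at 543 and its highest at 668 (mean 512 ± 154, SD, n = 16). In middle oocytes Kit ran from 394 CPM over a median of 516 to 660 (514 ± 82.5, n = 14). In old oocytes Kit ran from 44.9 CPM over a median of 385 to 619 (382 ± 156, n = 16). The old group was the one with the lowest median and the longest lower tail, and it overlapped with every other group of its set. In CR oocytes Kit ran from 247 CPM over a median of 581 to 754 (579 ± 106, n = 27).

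In the second set Kit in oocytes formed narrow, overlapping distributions. At 2mo it ran from 409 CPM over a median of 514 to 591 (508 ± 49.6, n = 24), and at 4mo from 410 over 518 to 643 (521 ± 59.5, n = 39). At 9mo the values ran from 437 CPM over 558 to 659 (545 ± 70.0, n = 16). At 14mo they ran from 470 over 524 to 649 CPM (537 ± 49.2, n = 16) and in 2moNoH from 437 over 525 to 610 CPM (531 ± 37.9, n = 32). The coefficient of variation of Kit was 7.13% in 2moNoH and at most 12.9% in the second set, against 16.1% to 40.8% in the first. By median, the order in the first set was old, middle, young and CR, and in the second 2mo, 4mo, 14mo, 2moNoH and 9mo. Of the neighbours in these orders, none that was compared differed past the test.

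The ligand in cumulus cells had a larger coefficient of variation than the receptor in oocytes in every group except old, where it was 32.5% for Kitl and 40.8% for Kit. On the log2 scale the SD was also larger for Kit in young (0.62 against 0.57). Kitl had 11 to 223 counts in a cumulus pool and Kit 62 to 2583 in an oocyte, so counting error weighs more on Kitl. Its part in the spread was not tested. A value per cumulus pool sums over all its cells, so fewer cells that express the gene and less RNA per cell cannot be told apart. Kitl in young cumulus cells ran from 24.5 CPM over a median of 59.9 to 97.5 (58.2 ± 20.2, n = 15), and in middle from 23.7 over 52.9 to 97.4 CPM (51.8 ± 19.3, n = 15). In old cumulus cells Kitl ran from 32.1 CPM over 61.3 to 127 (65.6 ± 21.3, n = 16) and in CR from 22.3 over 53.5 to 108 CPM (58.4 ± 19.8, n = 25). The 4 groups of the first set covered nearly the same range. At 2mo Kitl ran from 25.5 CPM over a median of 63.1 to 153 (67.8 ± 31.7, n = 24) and at 4mo from 13.5 over 52.5 to 112 CPM (51.3 ± 24, n = 40). At 9mo it ran from 25.4 CPM over 92.7 to 136 (86.9 ± 32.3, n = 16), and at 14mo from 38.9 over 75.3 to 172 CPM (89.1 ± 39.6, n = 16). In 2moNoH Kitl covered the widest range, from 14.3 CPM over 84.2 to 253 (90.7 ± 56.9, n = 32). By median, the order was middle, CR, young and old in the first set and 4mo, 2mo, 14mo, 2moNoH and 9mo in the second. Neighbours in either order did not differ past the test where compared, while 4mo and 9mo at the ends of the second order did.

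**Figure D1:**
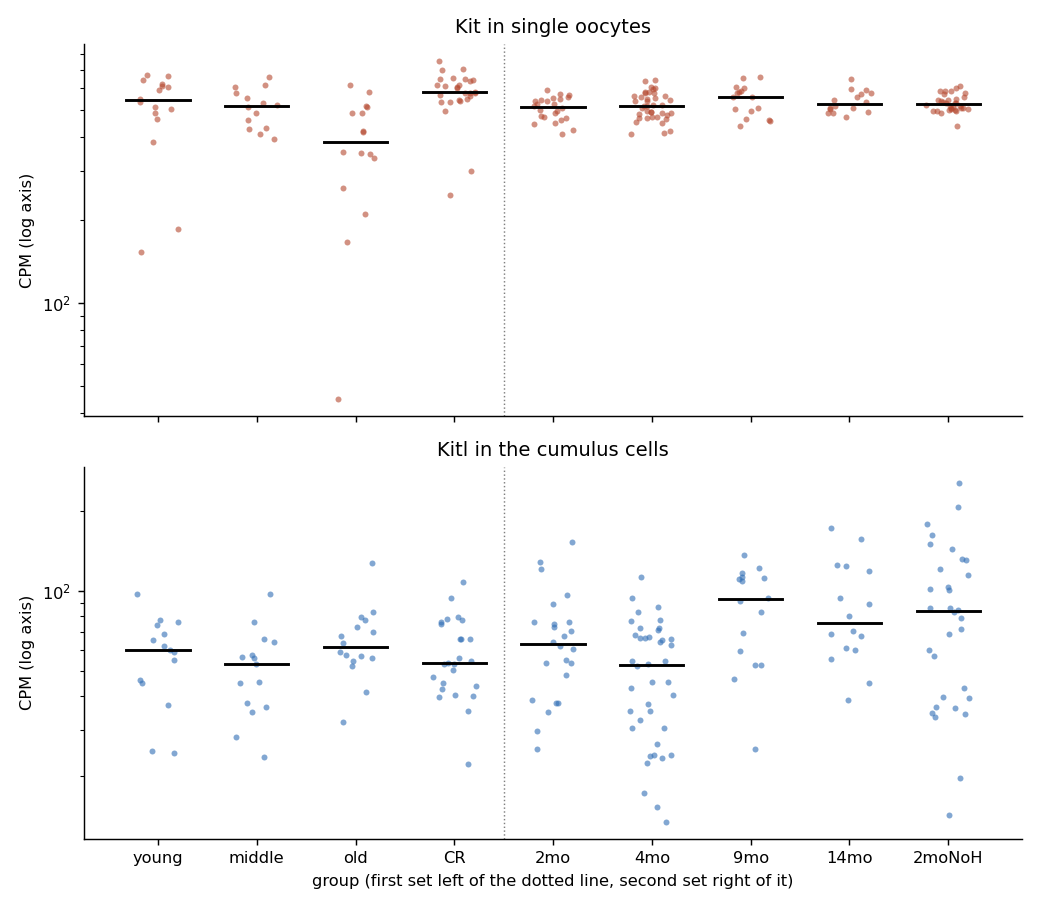
Kit in single oocytes (upper panel) and Kitl in cumulus cells (lower panel), in TMM-normalized CPM on log axes, by group; each point is 1 library, bars are medians, and the dotted line parts the 2 sets, which were normalized separately. Kit lay between 409 and 659 CPM in the second set and reached down to 44.9 CPM in old oocytes, and Kitl ranged from 13.5 to 253 CPM.

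Set against its length, the receptor message was the more abundant of the pair. In RPKM, reads scaled to library size and transcript length (8911 bases for Kit and 5911 for Kitl), mean Kit in oocytes was 44.4 ± 16.4 in old and 62.4 ± 10.5 in CR, with the other groups between. Mean Kitl in cumulus cells was 8.74 ± 4.12 RPKM at 4mo and 15.3 ± 9.40 RPKM in 2moNoH, again with the other groups between. The medians that follow divide TMM-normalized levels by length, over all groups of the second set, so they are not scaled as these means. In oocytes Gdf9 and Bmp15, the secreted factors that act back on cumulus cells, had medians of 2342 and 1453 RPKM. FOXO3, the transcription factor held in check by AKT, had a median of 142 RPKM in those oocytes, and Pik3cd, a catalytic subunit of PI3K, 155 RPKM. Among the proteases known to cut KIT ligand or KIT from the cell surface, Adam10 had the highest of the medians given here in cumulus cells of the second set, 38.6 RPKM, against 26.3 for Adam17 and 22.2 for Adam9. Mmp9 was at a median of 0 there.

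The 2 genes were divided between the cell types as the receptor and ligand roles have it, in all 9 groups. Between oocytes and cumulus cells of 1 group, Kit was higher in oocytes by 4.47 (old, SE 0.34) to 6.23 (CR, SE 0.24) on the log2 scale, and every one of these 9 differences passed edgeR's quasi-likelihood test at a false discovery rate of 5%. Kitl was lower in oocytes in all 9, by a log2 difference of -1.07 (CR, SE 0.17, adjusted p = 9.16e-08 by edgeR) to -3.14 (2moNoH, SE 0.19), and all 9 passed. The background is high, since most genes differ between these cell types. Of the genes tested, 85.0% passed in young, 84.3% in middle, 82.0% in old, 87.6% in CR, 88.4% at 2mo, 89.9% at 4mo, 86.4% at 9mo, 86.4% at 14mo and 89.0% in 2moNoH.

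Each gene was also counted at a low level in the opposite cell type. Kit in cumulus cells had group medians from 7.78 CPM in 2moNoH to 22.6 CPM in old, with 0 to 61.2 CPM in single libraries and 10 libraries at 0 counts. The median of Kit in cumulus cells was 1.45% (2moNoH) to 5.53% (old) of that in oocytes, whereas the summed oocyte markers in the same libraries were at 0.0101% to 0.0264% of their oocyte level by group median. Single cumulus libraries had oocyte markers up to 1.72% of that level in CR (368 CPM) and up to 0.641% in young (143 CPM). In old cumulus cells Kit ran from 0.937 CPM over 22.6 to 58.6 CPM. Mean Kit there was 43.2 ± 13.7 CPM in the 5 pools of Old3 and 15.9 ± 10.1 CPM in the 11 of Old1_2. Mast cells are another cell type that carries KIT, and the summed mast cell markers in cumulus libraries had a median of 0 in every group and reached at most 1.58 CPM. Theca cells of the follicle wall also carry KIT. Of 5 theca markers, Ptch1 and Nr2f2 were counted in cumulus libraries (medians of 150 and 64.1 CPM in the second set), and Gli1 and Col1a1 had medians of 0. Cyp17a1, the enzyme that defines theca cells, had a median of 2.39 CPM in the first set and of 0.477 CPM in the second, with single pools up to 49.9 and 171 CPM. The summed theca markers had medians of 157 CPM in old, 207 in young, 152 in middle and 156 in CR cumulus cells, and the part of theca cells in Kit was not tested. Kitl in oocytes had group medians of 7.41 CPM (4mo) to 16.9 CPM (CR), or 9.14% (9mo) to 29.9% (CR) of the level in cumulus cells. The summed cumulus markers in oocyte libraries were at 3.13% to 6.29% by group median. In single oocyte libraries these markers reached 14.5% in young, 28.9% in middle, 28.2% in old and 19.0% in CR, and at most 6.11% in the second set.

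**Figure D2:**
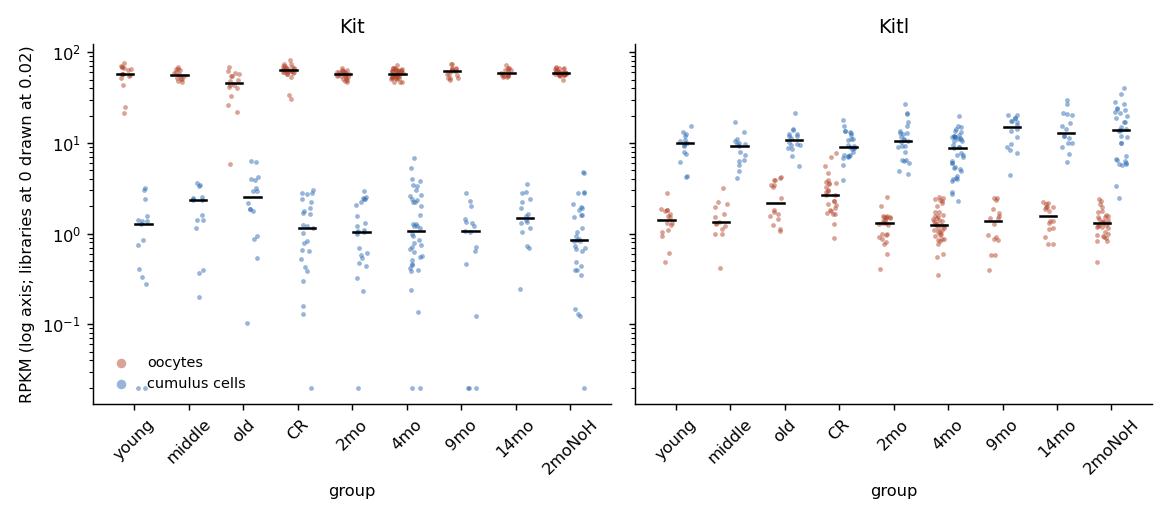
Kit (left) and Kitl (right) in oocytes (red) and cumulus cells (blue) by group, in RPKM on a log axis; points are libraries, bars are medians, and libraries at 0 are drawn at 0.02. Kit in oocytes and Kitl in cumulus cells were the higher of the 2 cell types in all 9 groups, with Kitl at 9.14% to 29.9% of its cumulus level in oocytes.

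Across age, diet and hyperovulation, Kit in oocytes passed the test in 1 of 13 comparisons. Differences below are on the log2 scale, edgeR's estimate of the second group minus the first, and the percentages give the share of all tested genes that passed in the same comparison. With age in the first set Kit differed by -0.0031 from young to middle (SE 0.15, 0% of genes), -0.43 from young to old (SE 0.22, edgeR adjusted p = 0.200, 7.39%) and -0.45 from middle to old (SE 0.20, adjusted p = 0.206, 0%). The intervals reached from -0.87 to 0.014 for young to old and from -0.85 to -0.052 for middle to old. Middle to old turned on the old mouse labels, since it was -0.044 without Old1_2, and -0.67 without Old3, where it passed (edgeR adjusted p = 0.0496). Young to old was -0.041 without Old1_2, -0.65 without Old3 and -0.053 with the summed cumulus markers as a covariate, and passed in none of these. In the second set the intervals were narrow. From 2mo to 14mo Kit differed by 0.085 (95% interval -0.0045 to 0.17, 1.14% of genes) and from 2mo to 9mo by 0.10 (0.0024 to 0.21, 0.160%). The other age differences there were 0.042 for 2mo to 4mo (0.0126%), 0.063 for 4mo to 9mo (0.0128%), 0.059 for 4mo to 14mo (0.868%) and -0.014 for 9mo to 14mo (0.0136%), and none passed. Between 2moNoH and 2mo, the comparison of hyperovulation at 1 age, Kit differed by -0.073 (interval -0.14 to -0.0070, edgeR adjusted p = 0.648, 0.0299% of genes).

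With diet, Kit in CR oocytes was higher than in old oocytes by 0.60 (SE 0.16, edgeR adjusted p = 0.00253), a fold of 1.52 with an interval of 1.21 to 1.90, where 38.7% of all genes passed. CR and old mice differ in age as well as in diet. Against middle oocytes of the same age, Kit in CR differed by 0.18 (SE 0.095, adjusted p = 0.163, 30.0% of genes), and against young by 0.18 (SE 0.12, adjusted p = 0.287, 33.3%). The old and CR ranges overlapped, with 3 of 16 old oocytes below the lowest CR oocyte, 9 of 27 CR oocytes above the highest old oocyte and 25 of 27 above the old median. The difference rested on 1 mouse label. The 5 oocytes of Old3 had Kit at 420, 488, 488, 511 and 581 CPM (mean 498 ± 58.0), whereas the 11 of Old1_2 ran from 44.9 to 619 CPM (mean 330 ± 160). Without Old1_2 the difference was 0.24 (edgeR adjusted p = 0.260), and with counts summed per mouse label 0.41 (adjusted p = 0.245). Over mouse labels the difference was 0.54 with an exact permutation p of 0.2, where 0.1 is the smallest that 2 against 3 labels allow.

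The oocytes with the least Kit had high cumulus markers, and so did some oocytes with more Kit. Of the 8 oocyte libraries of the first set with the least Kit, 4 were of Old1_2, 2 of Young2 and 2 of CR. The lowest of them, an old oocyte with 62 counts of Kit, had oocyte markers at 7654 CPM, cumulus markers at 1839 CPM and 6.75% of its counts on mitochondrial genes. In the other 7 the oocyte markers ran from 10234 to 26541 CPM, beside group medians of 17441 to 22362 CPM in this set, and 3 of them lay at 20375 CPM or above. Their mitochondrial share ran from 1.36% to 5.31%, so neither measure was uniform among the oocytes with little Kit. The cumulus markers of the other 7 were between 828 and 1721 CPM, against medians of 300.2 CPM in young, 609 in old and 342 in CR oocytes. The libraries with the highest cumulus markers in young (1391 CPM) and CR (1721 CPM) were among the 8. Those with the highest in old (2735 CPM) and middle (2705 CPM) were not, and the lowest Kit in middle oocytes was 394 CPM. With the cumulus marker sum as a covariate the difference between old and CR was 0.38 (SE 0.15, edgeR adjusted p = 0.0532), and the parts of cumulus RNA and of library quality in it were not tested further. CR oocytes were also sequenced more deeply, at a median of 3578882 counts against 2293313 in old.

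Kitl in cumulus cells passed the test in 2 of 13 comparisons, both of them against 4mo. From 4mo to 9mo Kitl was higher by 0.76 (SE 0.19, edgeR adjusted p = 0.0134), a fold of 1.70 with an interval of 1.31 to 2.19, where 1.82% of all genes passed. From 4mo to 14mo it was higher by 0.81 (SE 0.18, adjusted p = 0.00458), a fold of 1.76 with an interval of 1.36 to 2.26, where 4.61% of genes passed. The ranges overlapped. Of 16 cumulus pools, 12 at 9mo and 14 at 14mo lay above the 4mo median, and 15 of 40 at 4mo lay below the lowest at 14mo. Over mouse labels the differences were 0.79 for 4mo to 9mo (exact permutation p = 0.0141) and 0.76 for 4mo to 14mo (exact permutation p = 0.0117). With counts summed per label and p adjusted over all genes, 0.69 (edgeR adjusted p = 0.243) and 0.74 (adjusted p = 0.0993) did not pass.

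By mouse label, mean Kitl at 4mo ran from 37 CPM in 4mo5 to 89.7 CPM in 4mo29, at 9mo from 69.7 in 9mo23 to 104 CPM in 9mo24 and at 14mo from 63.5 in 14mo39 to 129 CPM in 14mo37. The 4 pools of 14mo37 had Kitl at 68.6, 119, 157 and 172 CPM. 3 of these 4 were above every pool at 4mo, whose highest value was 112 CPM. Leaving out 14mo37 gave 0.58 for 4mo to 14mo (edgeR adjusted p = 0.101), and 4mo to 9mo was 0.64 without 9mo24 (adjusted p = 0.155) and 0.66 without 4mo5 (adjusted p = 0.0648). The complex labels of this set begin with B1 or B2, and what the prefix stands for is not given in the sources used here. Within B1 the differences were 0.84 for 4mo to 9mo and 1.02 for 4mo to 14mo, and within B2 0.76 and 0.63. Depth and the cumulus markers were close in the 3 groups. Median totals were 854688, 856765 and 883093 counts at 4mo, 9mo and 14mo, and the summed cumulus markers 8794, 8844 and 9055 CPM. The summed theca markers had medians of 236, 191 and 243 CPM, and the leukocyte markers, low throughout, were lower in the older groups at 9.26, 6.07 and 5.39 CPM. Their part in the difference was not tested.

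The remaining comparisons of Kitl in cumulus cells did not pass. In the first set the differences were -0.15 from young to middle (SE 0.18, 1.46% of genes), 0.20 from young to old (SE 0.17, 3.96%) and 0.35 from middle to old (SE 0.17, edgeR adjusted p = 0.678, 0.0433%). For diet they were 0.18 from middle to CR (SE 0.16, interval -0.15 to 0.50, 3.60%), 0.027 from young to CR (SE 0.16, 8.08%) and -0.16 from old to CR (SE 0.15, 5.44%). In the second set they were -0.40 from 2mo to 4mo (SE 0.17, edgeR adjusted p = 0.263, 0.519%), 0.36 from 2mo to 9mo (SE 0.19, 1.92%), 0.41 from 2mo to 14mo (SE 0.19, adjusted p = 0.303, 1.70%) and 0.049 from 9mo to 14mo (SE 0.20, 0.143%). The group at 2mo lay between 4mo and the older groups, and its difference from either side did not pass. The same 3 ages of the first set, at 2, 9 and 14 months, were normalized separately and are not compared with the second set.

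**Figure D3:**
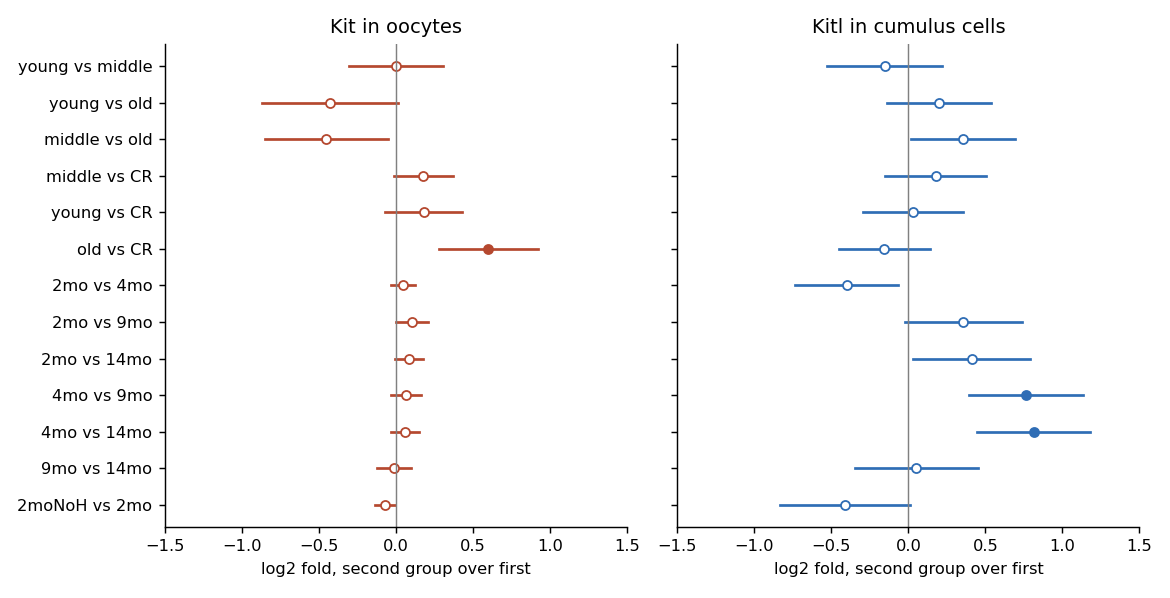
Log2 differences of Kit in oocytes (left) and Kitl in cumulus cells (right) in 13 comparisons, second group over first, with 95% intervals over libraries from edgeR; filled points passed a false discovery rate of 5%. Kit passed for old vs CR (0.60) and Kitl for 4mo vs 9mo (0.76) and 4mo vs 14mo (0.81).

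Kitl varied most in the mice without hyperovulation. Between 2moNoH and 2mo cumulus cells Kitl differed by -0.41 (SE 0.21, interval -0.83 to 0.010, edgeR adjusted p = 0.204), where 13.2% of all genes passed. The sign was not the same within the label prefixes, with -0.68 in B1 (16 pools in each group) and 0.29 in B2 (16 against 8 pools). Much of the variation in 2moNoH lay between mice, with 67.7% of the log2 variance between its 8 mouse labels against 5.33% to 37.6% between labels in the other groups. This share rises with the number of labels even without a difference between mice, and old, with the lowest share, had 2 labels. At 4mo, also with 8 labels but with more pools, it was 29.9%. The 4 pools of 2moNoH8 had Kitl at 121, 150, 162 and 206 CPM and the 4 of 2moNoH10 at 19.7, 33.5, 39.8 and 43.2 CPM, so that these 2 mice did not overlap. Mouse means ran from 34.1 to 159 CPM in 2moNoH and from 47.3 to 102 CPM at 2mo. The comparison of the spreads was chosen after seeing these values. The mean absolute deviation of log2 Kitl from the group median was 0.787 over libraries in 2moNoH and 0.504 at 2mo (two-sided permutation p = 0.0511), and over mouse means 0.707 and 0.322 (exact permutation p = 0.117), so the difference in spread did not pass.

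**Figure D4:**
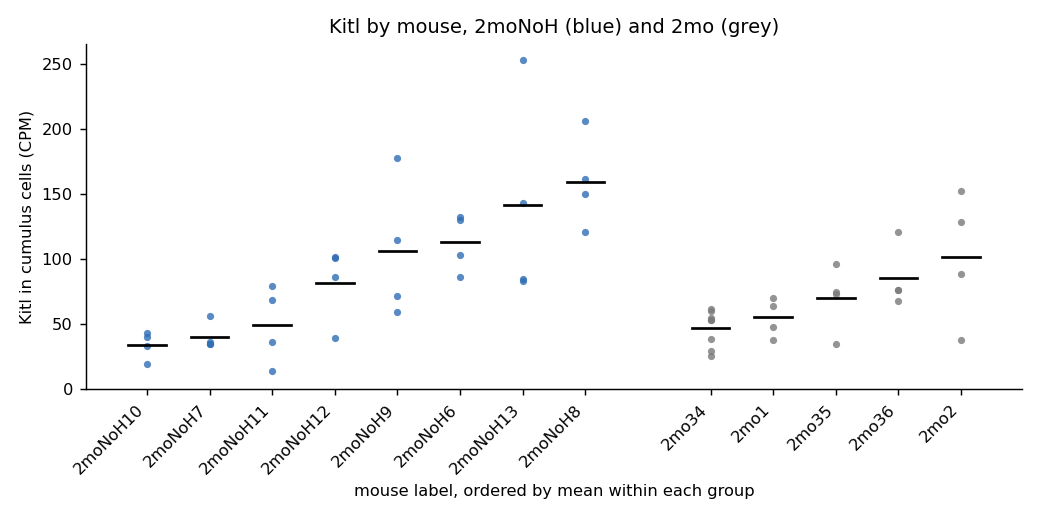
Kitl in cumulus cells in CPM for each mouse label without hyperovulation (blue) and with it (grey) at 2 months; points are complexes, bars are mouse means, and labels are ordered by their mean. Mouse means ran from 34.1 to 159 CPM in 2moNoH and from 47.3 to 102 CPM at 2mo.

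Whether the 2 cell types differed in their response was tested with an interaction term. For hyperovulation, the difference in oocytes minus that in cumulus cells was 0.0016 for Kit (SE 0.17, interval -0.34 to 0.35) and 0.32 for Kitl (SE 0.28, edgeR adjusted p = 0.709), where 4.05% of genes passed. For middle to CR it was 0.62 for Kit (SE 0.33, adjusted p = 0.245) and 0.78 for Kitl (SE 0.28, adjusted p = 0.0519), where 12.7% of genes passed.

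Kitl was also followed in oocytes, where it was counted at a low level. In CR oocytes Kitl ran from 5.58 CPM over a median of 16.9 to 45 CPM (18.6 ± 9.70, n = 27), and in middle oocytes from 2.59 over 8.24 to 17.9 CPM (8.98 ± 3.76, n = 14). In young oocytes it ran from 2.83 over 8.70 to 16.3 CPM (8.48 ± 3.50, n = 16). In old oocytes Kitl ran from 6.34 over 12.3 to 22.3 CPM (14.0 ± 6.27, n = 16). The CR group was the highest by median and old the next, and all 4 groups overlapped. From middle to CR the difference was 1.05 (SE 0.22, edgeR adjusted p = 0.000253), a fold of 2.07 with an interval of 1.51 to 2.83, where 30.0% of all genes passed, and over mouse labels 1.25 with an exact permutation p of 0.0286, the smallest that 4 against 3 labels allow. From young to CR it was 1.10 (SE 0.21, edgeR adjusted p = 4.63e-05), where 33.3% of genes passed, and without Young2 it was 0.92 (adjusted p = 0.114). Over mouse labels it was 1.18 with an exact permutation p of 0.2, where 0.1 is the smallest that 2 against 3 labels allow. From old to CR Kitl differed by 0.42 (SE 0.21, edgeR adjusted p = 0.116) and from young to old by 0.68 (SE 0.22, adjusted p = 0.0520), and neither passed. The summed cumulus markers had medians of 342 CPM in CR, 382 in middle and 300.2 in young oocytes, and with their sum as a covariate the differences were 1.07 and 1.10 and passed. The part of the greater depth of the CR libraries was not tested. No other of the 13 comparisons of Kitl in oocytes passed, and none of the 13 of Kit in cumulus cells did, with 1.16 from young to old (SE 0.40, edgeR adjusted p = 0.0947) and -1.06 from old to CR (SE 0.35, adjusted p = 0.0617) nearest to the threshold.

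Within the groups, the receptor in an oocyte and the ligand in its own cumulus cells were compared complex by complex. Pearson's r of the log2 levels was 0.54 in young (n = 15, rho 0.43, permutation p = 0.0331 for r and 0.109 for rho) and 0.54 in middle (n = 14, rho 0.54, permutation p = 0.0454 and 0.0492). The other groups had r of 0.072 in old, 0.038 in CR, 0.088 at 2mo, 0.17 at 4mo, 0.29 at 9mo, -0.020 at 14mo and 0.19 in 2moNoH. Together with Gdf9 and Bmp15 in place of Kit, 27 relations were computed, and none passed after Benjamini-Hochberg adjustment (smallest adjusted permutation p = 0.223 for r and 0.379 for rho). The value in young rested on 2 oocytes with little Kit, since r was 0.20 without the 2 complexes farthest from the median, and in middle it was 0.42. In CR leaving out the 2 farthest raised r from 0.038 to 0.47, so the low value there rested on 2 complexes as well, and in the other groups r without them was between 0.042 and 0.28. Gdf9 and Kitl had r of 0.59 in young (permutation p = 0.0199) and 0.38 in 2moNoH (permutation p = 0.0291), and 0.23 in each without the 2 farthest complexes. In CR r of Gdf9 and Kitl was 0.20, and 0.59 without the 2 farthest. Centred on the mouse, r of Gdf9 in 2moNoH was 0.089. Bmp15 and Kitl had r of 0.61 in young (permutation p = 0.0159) and 0.23 without the 2 farthest, and in middle -0.41 and -0.60. Complexes of 1 mouse share the mouse, so these p-values treat as separate what is partly shared.

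**Figure D5:**
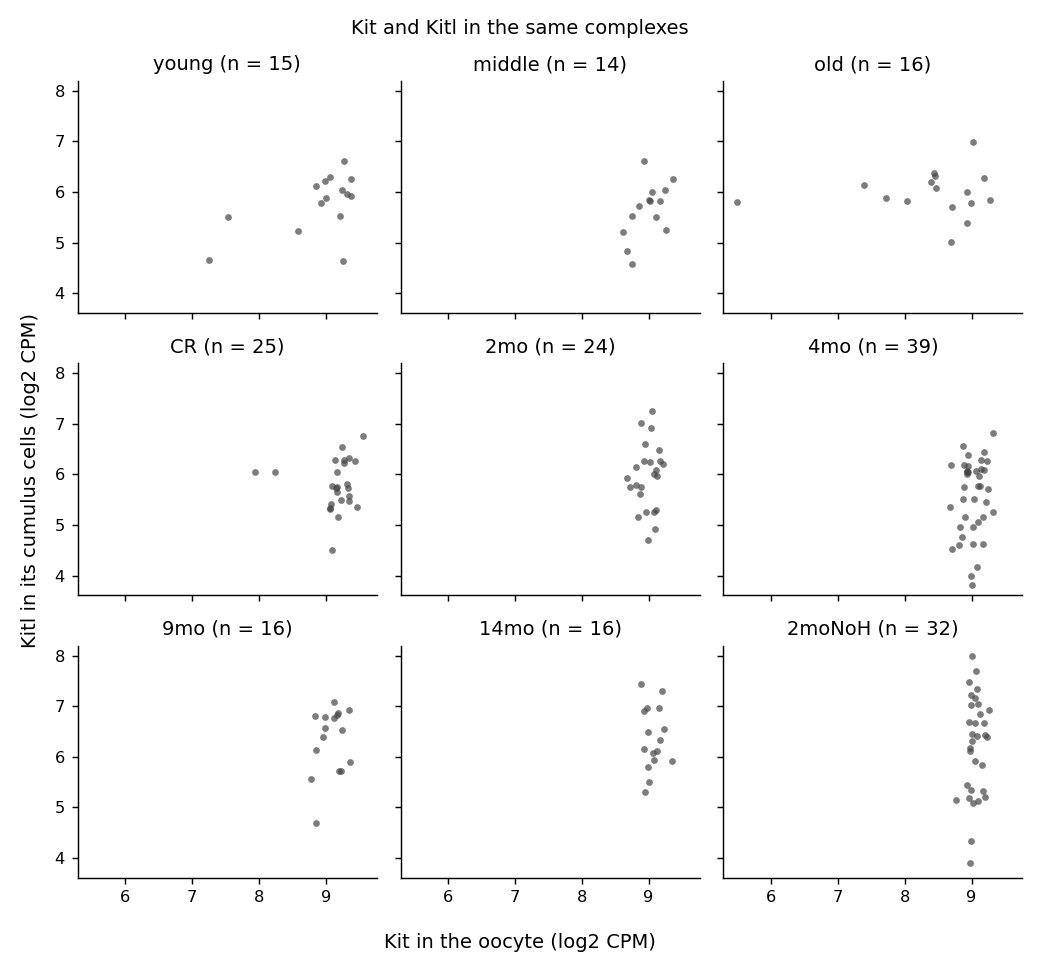
Log2 CPM of Kit in the oocyte (horizontal) against Kitl in the cumulus cells of the same complex (vertical), 1 panel per group and 1 point per complex. Kit spread over a narrow range in the second set while Kitl varied, and r was between -0.020 and 0.54 in the 9 groups.

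The genes whose level moved most like Kit over oocytes, after centring on the group mean, were found among 8601 genes with a mean of at least 10 CPM in both sets. They were Hyou1, a chaperone of the endoplasmic reticulum (r = 0.85 over 73 oocytes of the first set and 0.70 over 127 of the second), Mtmr14, a lipid phosphatase (0.70 and 0.73), D030018L15Rik (0.72 and 0.68), Mtor, the kinase at the centre of growth control (0.80 and 0.67), and Dop1b (0.88 and 0.67). For Kitl over cumulus cells, among 9378 genes, they were Gstm2, a glutathione transferase (0.60 over 71 pools of the first set and 0.48 over 128 of the second), Emilin2, a matrix protein (0.55 and 0.37), Synpo, an actin-binding protein (0.40 and 0.37), Myo10, a motor protein of filopodia (0.37 and 0.39), and Mark4, a kinase of microtubule proteins (0.36 and 0.36). The points share libraries, depth and RNA quality, and the values are given as a description.

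Around the pair, 102 genes of the pathway in 8 lists were followed in the same comparisons. Their differences are given over libraries alone, without values over mouse labels. In oocytes, from old to CR, 38 of 101 list genes tested rose and 16 fell, or 53.5%, beside 38.7% of all genes. Of 20 genes of the PI3K arm 11 rose and 2 fell (list median 0.33, all genes -0.045). Pdpk1, the kinase that activates AKT, rose by 0.65 (SE 0.13), while Cdkn1b, the cell cycle inhibitor p27, fell by 0.73 (SE 0.10). Of 11 attenuators of KIT, which switch the receptor off, 6 rose and none fell (median 0.36), among them the ubiquitin ligase Cbl, by 0.55 (SE 0.15). Of the 12 growth factors, receptors and SMADs by which oocytes act on Kitl, 8 rose and 1 fell in oocytes (median 0.37). In cumulus cells 1 of the 12 rose and 3 fell between the same groups (median -0.098). In oocytes the receptor gene Bmpr2 rose by 0.48 (SE 0.097) and Smad7, an inhibitory SMAD, fell by 1.61 (SE 0.43). In the RAS, SRC and JAK arms 7 of 25 rose and 6 fell, with Jak2 higher by 0.63 (SE 0.097) and Map2k1, the kinase MEK, lower by 0.54 (SE 0.080). Of 6 shedding proteases tested 2 rose and 1 fell, with Adam17 higher by 0.42 (SE 0.092). Of 6 oocyte transcription factors upstream of Kit 1 rose, and Nobox, Lhx8 and Figla were not among those that passed. In the other class III receptors and ligands, the family of KIT, 3 of 11 rose and 2 fell. Of 10 gonadotropin receptors and granulosa transcription factors, 4 fell and none rose, among them Foxl2, by 2.15 (SE 0.47). The other 6 of that list did not pass (median -0.46). The summed cumulus markers in oocytes had medians of 609 CPM in old and 342 CPM in CR, and their part in the lists was not tested.

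In the diet comparison at 1 age, from middle to CR, 27 of 101 list genes tested in oocytes rose and 17 fell, or 43.6%, beside 30.0% of all genes. Of the PI3K arm 6 of 20 rose and 2 fell, with Cdkn1b lower by 0.51 (SE 0.086). Of the growth factors, receptors and SMADs 2 of 12 fell and none rose in cumulus cells (median -0.11). In oocytes 6 of the 12 rose and none fell, with Bmpr2 higher by 0.45 (SE 0.072). In the RAS, SRC and JAK arms 7 of 25 rose and 6 fell, with Jak2 higher by 0.51 (SE 0.057) and Map2k1 lower by 0.48 (SE 0.068). Of the attenuators 3 of 11 rose and 1 fell, and of the granulosa list 1 of 10 rose and 4 fell. Of the shedding proteases 2 of 6 fell and none rose. From young to CR 32 of 101 rose and 15 fell, or 46.5%, beside 33.3%. The 3 comparisons share the CR oocytes.

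From young to old, 4 of 100 list genes tested in oocytes rose and 8 fell, or 12%, beside 7.39% of all genes. Of the PI3K arm 4 of 20 fell and none rose, among them Akt1 by 0.73 (SE 0.18), Akt2 by 0.74 (SE 0.21) and Pik3cd by 0.76 (SE 0.23). Csf1, the ligand of another class III receptor, fell by 0.71 (SE 0.20). Of the granulosa list 3 of 10 rose, with Nr5a2 higher by 0.70 (SE 0.17), and the old group was again the one with the higher cumulus marker sum. In the second set 0 of 98 list genes tested in oocytes passed between 2moNoH and 2mo, beside 0.0299% of all genes, and 0 of 98 from 4mo to 9mo, beside 0.0128%. From 2mo to 14mo 1 of 97 rose and 3 fell, or 4.12%, beside 1.14%. None of the 20 genes of the PI3K arm passed there (list median 0.00033), and 1 of 9 class III receptors and ligands tested fell.

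In cumulus cells, from old to CR, 6 of 95 list genes tested rose and 7 fell, or 13.7% beside 5.44% of all genes. From young to CR 4 of 95 rose and 7 fell, or 11.6% beside 8.08%. From middle to CR 2 of 94 rose and 3 fell, or 5.32% beside 3.60%. In the comparisons in which Kitl passed, few list genes did. From 4mo to 9mo, 1 of 93 rose and 2 fell, or 3.23% beside 1.82% of all genes. Foxo1, the FOXO factor of granulosa cells, fell by 0.40 (SE 0.085) and Smad7 by 0.72 (SE 0.17). From 4mo to 14mo, 2 of 93 rose and 7 fell, or 9.68% beside 4.61%. Foxo1 fell by 0.46 (SE 0.083) and Fshr, the receptor of follicle stimulating hormone, by 0.46 (SE 0.13), while Rheb, an activator of mTOR, rose by 0.30 (SE 0.082). Lhcgr, the receptor of luteinizing hormone, passed as higher in both, from a median of 1.08 CPM over the cumulus pools of the set and with single pools up to 827 CPM. Between 2moNoH and 2mo, 11 of 94 rose and 6 fell, or 18.1% beside 13.2%. Of the 10 gonadotropin receptors and granulosa transcription factors 5 rose and 1 fell. Nr5a1 was higher in 2mo by 1.17 (SE 0.17), Fshr by 0.94 (SE 0.16) and Foxl2, a factor that keeps granulosa identity, by 0.92 (SE 0.19), while Esr2, an oestrogen receptor, fell by 0.34 (SE 0.10). The summed cumulus markers had a median of 6479 CPM in 2moNoH and of 8920 CPM at 2mo.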

How the data were processed

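After trimming (Fastq-mcf), the authors aligned reads to GRCm38 (HISAT2 2.0.5) and assigned them to GENCODE vM15 genes (featureCounts 1.5.1), dividing reads that map to several genes among them. They deposited expected counts and RPKM values. In libraries fed ad libitum, 100% of the RPKM values matched these counts within 1% in both sets. In CR the median ratio of recalculated to deposited RPKM was 1.002 for Kit in oocytes and 0.994 for Kitl in cumulus cells. The cause of this difference was not tested. Fractions made up 36.8% of the nonzero expected counts of the first table and 35.1% of those of the second. All values of Kit and Kitl were whole. The design had taken the values for plain counts, and they were rounded before testing. RPKM were recalculated here for every library from the counts and the lengths behind the deposited RPKM of libraries fed ad libitum. Positions and symbols came from GENCODE vM21 on GRCm38. Reads carry no molecular identifiers.

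Groups were compared with edgeR 4.0.16 in R 4.3.3 (TMM, quasi-likelihood test, Benjamini-Hochberg adjustment over all genes counted in 5 or more of the libraries compared, false discovery rate 5%), after a check on simulated data. Mouse means were compared by exact permutation and correlations by 100000 permutations, all two-sided. Alternatives were DESeq2 1.42.0, no TMM, other filters, the cumulus marker sum or the label prefix (B1 or B2, whose meaning is not given in the sources used here) as a covariate, all groups in one fit, counts summed per mouse and each mouse label left out in turn. Oocyte and cumulus libraries were paired by their complex label. Their deviations from the group means had a median correlation of 0.0494 within a complex in the first set (70 complexes) and 0.0293 in the second (127). The members, gene lists and tests were chosen with earlier results of these data known. Genes named beside Kit and Kitl are, at most 3 a list and direction, those with the smallest adjusted p in the comparisons described, some others shown for their levels, and the 5 most like each member. The values of a list gene that the rule would name are not reported here.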

Additional observations from a re-analysis of the deposited data

Results flagged for a closer look

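In 12 groups of 4 to 10 mouse labels the highest and lowest mouse mean were tested for standing apart from the rest by Dixon's ratio, which chance passes in about 1 of 20 groups, and 2 did. Mouse 4mo29 had a mean Kitl in cumulus cells of 89.7 CPM (ratio 0.648), against 37 to 55.5 CPM in the other labels at 4mo, and without it the differences from 4mo were 0.89 to 9mo and 0.93 to 14mo. Mouse 14mo37 had a mean of 129 CPM (ratio 0.717), against 63.5 to 82.1 CPM in the others at 14mo.

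The library labelled oocyte of the complex left out held 4 counts of Kit, or 2.33 CPM, and 58 counts of Kitl, or 33.8 CPM, where 3 counts correspond to 1.75 CPM. Its oocyte markers summed to 218 CPM and its cumulus markers to 11913 CPM. The cumulus library of the same complex had Kit at 14.8 CPM and Kitl at 35.7 CPM.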

How the results depend on the processing

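Of 554 values recomputed, 511 kept their direction and their side of the threshold. With counts summed per mouse, Kit from old to CR was 0.41, Kitl in cumulus cells 0.69 from 4mo to 9mo and 0.74 from 4mo to 14mo, and none of these passed. With the cumulus marker covariate Kit from old to CR was 0.38 and did not pass, and Kit from young to CR was 0.25 and passed. Over mouse means Kit from old to CR was 0.54 in a design that cannot pass. Without TMM the calorie restriction interaction of Kitl was 0.85 and passed. Signs that turned were all of differences that did not pass. Kit from young to middle was 0.0072 without TMM, 0.12 with the covariate and 0.0036 with all groups in one fit, Kit from young to CR -0.013 with summed counts, and Kit from 9mo to 14mo 0.0078 with the covariate and 0.0063 over mouse means. Kitl in cumulus cells from young to CR was -0.064 with summed counts and -0.074 over mouse means, where young to old was -0.014 and 9mo to 14mo -0.030. The hyperovulation interaction of Kit was -0.0024 without TMM. With the complex as replicate block it was -0.074, and this pairing changed no other direction or call. Of the correlations with Kitl, centring on the mouse gave -0.14 (2mo), 0.15 (14mo) and -0.18 (2moNoH) for Kit, -0.16 (2mo) for Gdf9 and -0.13 (2mo) for Bmp15, and no TMM gave 0.019 (14mo) for Kit and -0.0066 (old) for Bmp15. The cause was not tested.

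Leaving out each mouse label in turn gave Kit differences of -0.20 to 0.074 from young to middle, -0.67 to -0.044 from middle to old, -0.013 to 0.25 from young to CR and 0.24 to 0.80 from old to CR. Middle to old passed without Old3 (edgeR adjusted p = 0.0496). Kitl in cumulus cells ranged from -0.23 to 0.31 for young to old, -0.37 to 0.25 for young to CR, -0.33 to 0.056 for old to CR, 0.64 to 0.89 for 4mo to 9mo and 0.58 to 0.93 for 4mo to 14mo, the last 2 refitted after seeing the data. Kitl in oocytes from young to CR ranged from 0.92 to 1.4, and over mouse means it was 1.18 (exact permutation p = 0.2). Kitl was counted in at most 223 reads in a cumulus pool and Kit there in at most 75, so counting error weighs most on Kit in cumulus cells.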
